A study of Homo sapiens with 6 samples.

Results

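The genes described here encode 39 proteins of the coagulation and complement systems, out of 50868 genes in the deposited table. They were taken by gene name and fall into 10 procoagulant factors, 8 inhibitors and fibrinolysis proteins, 8 complement activation components, 6 terminal complement components and 7 complement regulators. All 39 names were found, each on 1 row. RNA was sequenced from wild-type Huh7 cells, a human hepatoma line, after 5 days with 20 µM of either the peptide P-T3H2 (3 libraries) or its control peptide, P-T3H2-2A (3 libraries). The groups compared held no untreated cells. Nothing in the labels gives replicates as separate cultures, so the p-values reflect the spread among these 6 samples alone, and that spread may be technical. The comparison asked how these genes stand in cells given a peptide that the series title describes as stabilising the HNF4α protein.

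Most clotting factors and complement components circulate in plasma and are made by hepatocytes, largely as inactive precursors that are cut into active proteases in a cascade. Clotting can start from factor VII with tissue factor (the extrinsic arm) or from the contact proteins factor XII, prekallikrein and high-molecular-weight kininogen, and both arms meet at factor X and prothrombin. Complement starts from the classical, lectin or alternative pathway, all of which cleave C3 and then C5, and it ends in a membrane pore built from C5 to C9. Many of these liver genes are known targets of hepatocyte transcription factors such as HNF4A and the C/EBP family.

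Total counts per library ranged from 17434442 to 21374732, and between 21815 and 22968 genes were detected. The library labelled P-T3H2-2A replicate 3 stood apart from its group: over all genes it lay nearer to the P-T3H2 mean than to the mean of P-T3H2-2A replicates 1 and 2 for 12536 of 15946 tested genes (78.6%). The chi-square distance per gene between it and the P-T3H2 libraries was 12.6 to 13.4, against 11.8 to 13.8 among the P-T3H2 libraries and 77.6 and 84.7 to the other controls. Its label may be wrong, which these files do not settle, and every value given as labelled rests on that label. Counts of members called are therefore given with all 6 libraries as labelled and again without that library (the 5-library fit). So are the sizes for members called in that fit with at least a 2-fold change. For some other members only the 5-library size is given. Every member called in the 5-library fit had a smaller change as labelled. All 12 hepatocyte markers were detected in every library. Of the markers of other cell types, CD163, MARCO, KDR, TEK, CLEC4G and ACTA2 were at 0, while others were detected. Means over the 6 libraries were 21.0 CPM for PDGFRB, 11.8 for LUM, 9.78 for COL1A2, 7.15 for COL3A1, 6.07 for PECAM1 and 4.29 for CD14. Summed hepatocyte markers ranged from 25325 to 26477 CPM with P-T3H2 and from 27401 to 29162 CPM with P-T3H2-2A. Single hepatocyte markers moved both ways. In the 5-library fit ALB and SERPINA1 were called higher, and APOB, TF, AHSG, FGB and RBP4 lower (45.4% of all genes called). FGB fell most, with a log2 fold change of -1.99, and DESeq2 did not call APOB. Cholangiocyte markers, of which SOX9, KRT19 and EPCAM held nearly all counts, summed to between 439.6 and 474 CPM in the P-T3H2 libraries and in P-T3H2-2A replicate 3, against 274 CPM in P-T3H2-2A replicate 1 and 290.2 CPM in replicate 2, a difference that lay mostly in SOX9. Endothelial markers summed to 11.9 and 11.5 CPM in those 2 libraries and 4.14 to 5.16 CPM in the other 4, a sum in which PECAM1 was lower (5-library log2 fold change -1.72) while VWF, at most 0.173 CPM in those 2 libraries, stood at 1.3 to 1.84 CPM in the other 4. Macrophage and leukocyte markers summed to 9.53 and 10.8 CPM against 3.57 to 4.24 CPM. Fibroblast and stellate markers stood at 39.9 and 40.1 CPM against 48.5 to 59.1 CPM. Mitochondrial genes took 6.25% and 6.27% of counts in P-T3H2-2A replicates 2 and 1, and 7.30% to 7.85% in the other libraries, and ribosomal protein genes took 2.91% and 3.04% against 2.14% to 2.24%. Apart from the hepatocyte sum, these marker sums and shares moved with the split described below. The hepatocyte sum of P-T3H2-2A replicate 3, 27401 CPM, lay between the other controls and the P-T3H2 libraries. The part of these sums and shares in the split was not tested.

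The upstream sequences of 7 members are shown because they include KNG1, the member that changed most, 4 others with called changes of about 2-fold or more, and members whose promoters hold a match to an HNF4A motif. They run from 250 bases before to 50 bases after the RefSeq start (GRCh38.p14), 5′ to 3′ on the gene's own strand, with motif matches in capitals. KNG1, F12 and F7 fell and F5 and MASP1 rose without P-T3H2-2A replicate 3, while F10 and SERPIND1 carry motif matches named after the sequences. Their windows are chr3:186717109-186717408 (KNG1, plus strand), chr5:177409515-177409814 (F12, minus strand), chr13:113105541-113105840 (F7, plus), chr1:169586432-169586731 (F5, minus), chr3:187291688-187291987 (MASP1, minus), chr13:113122549-113122848 (F10, plus) and chr22:20773863-20774162 (SERPIND1, plus).
KNG1: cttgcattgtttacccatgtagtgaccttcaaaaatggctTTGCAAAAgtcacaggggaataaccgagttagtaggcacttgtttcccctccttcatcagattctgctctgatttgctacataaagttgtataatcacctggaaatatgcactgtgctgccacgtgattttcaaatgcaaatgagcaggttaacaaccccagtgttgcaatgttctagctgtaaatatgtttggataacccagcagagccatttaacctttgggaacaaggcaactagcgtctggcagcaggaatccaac
F12: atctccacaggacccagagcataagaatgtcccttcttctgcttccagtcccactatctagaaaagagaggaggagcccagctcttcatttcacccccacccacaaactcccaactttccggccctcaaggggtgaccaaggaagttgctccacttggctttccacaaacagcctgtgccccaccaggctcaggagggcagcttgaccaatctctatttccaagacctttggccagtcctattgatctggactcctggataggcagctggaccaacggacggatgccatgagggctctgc
F7: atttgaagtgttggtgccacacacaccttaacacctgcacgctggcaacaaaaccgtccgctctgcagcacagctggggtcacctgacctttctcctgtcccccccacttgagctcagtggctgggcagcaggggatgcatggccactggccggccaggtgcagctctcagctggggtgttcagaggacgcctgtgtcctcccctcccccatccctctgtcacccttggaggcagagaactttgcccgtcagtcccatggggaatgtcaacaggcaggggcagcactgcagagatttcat
F5: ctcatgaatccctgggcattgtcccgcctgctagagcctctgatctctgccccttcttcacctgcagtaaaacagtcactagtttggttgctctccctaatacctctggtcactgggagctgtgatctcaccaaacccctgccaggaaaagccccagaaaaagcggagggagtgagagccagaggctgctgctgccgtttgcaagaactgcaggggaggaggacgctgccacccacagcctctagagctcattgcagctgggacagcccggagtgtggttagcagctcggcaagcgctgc
MASP1: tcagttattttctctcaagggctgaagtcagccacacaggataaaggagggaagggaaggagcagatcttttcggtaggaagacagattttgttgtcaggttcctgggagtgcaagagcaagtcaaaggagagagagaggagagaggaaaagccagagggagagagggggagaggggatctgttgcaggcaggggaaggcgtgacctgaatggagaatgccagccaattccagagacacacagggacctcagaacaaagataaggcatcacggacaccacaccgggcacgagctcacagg
F10: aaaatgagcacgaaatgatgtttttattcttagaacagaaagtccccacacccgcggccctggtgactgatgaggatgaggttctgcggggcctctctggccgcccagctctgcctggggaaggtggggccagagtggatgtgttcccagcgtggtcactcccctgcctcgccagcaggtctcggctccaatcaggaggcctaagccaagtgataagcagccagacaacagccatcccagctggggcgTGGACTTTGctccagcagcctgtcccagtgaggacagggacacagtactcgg
SERPIND1: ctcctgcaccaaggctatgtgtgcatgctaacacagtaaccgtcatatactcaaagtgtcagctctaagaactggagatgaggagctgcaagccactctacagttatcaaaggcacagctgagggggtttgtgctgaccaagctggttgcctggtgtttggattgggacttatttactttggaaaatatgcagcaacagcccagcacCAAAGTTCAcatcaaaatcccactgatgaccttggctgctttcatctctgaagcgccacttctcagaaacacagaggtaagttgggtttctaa

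Motifs were searched on both strands in the 32 members whose promoter is in the RefSeq table and in all 27305 promoters of that table. The HNF4A motif CAAAGTCCA was found in the F10 promoter alone among members, on the reverse strand as TGGACTTTG across the start site, and in 0.359% of all promoters. The relaxed form CAAAGNNCA, which includes every match of the former, was found in 5 members, C8A, F9, F10, SERPIND1 and VTN (15.6%), and in 5.26% of all promoters. The C/EBP motif TTGCNNAA was found in 7 members, C1R, C6, CPB2, KLKB1, KNG1, MBL2 and VTN (21.9%, against 10.6% of all promoters). In the 5-library fit described next, the relaxed HNF4A match stood in 1 of 12 members called lower, in 0 of 8 called higher and in 4 of 12 others. The letters of these motifs are absent from the shown windows of F12, F7, F5 and MASP1, which says nothing about binding by the factors.

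As labelled, none of the 37 members tested passed edgeR's quasi-likelihood test at an adjusted p of 0.05 in either direction, in a comparison where 0.00627% of all 15946 genes passed. At an unadjusted p under 0.05 there were 14 members, against 18.0% of all genes. DESeq2 called 2 members lower, KNG1 (adjusted p = 0.0149) and MBL2 (adjusted p = 0.0281), and no member higher, where it called 0.715% of all genes, 0.208% higher and 0.507% lower. The groups did not overlap in CPM (read counts scaled to the library total and its TMM factor) for 11 of 39 members, against 23.5% of all genes tested. The median log2 fold change of the members was -0.03, and that of all genes was -0.0039.

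Without P-T3H2-2A replicate 3, 25 of 37 members passed in edgeR, 11 higher and 14 lower with P-T3H2, in a fit where 45.4% of 16281 genes passed (22.6% higher and 22.8% lower). DESeq2 called 23 members, against 37.7% of all genes. Among genes with a mean of at least 10 CPM, 21 of 29 members passed in edgeR, against 54.6% of all such genes, and 7 of the 29 also changed at least 2-fold, against 6.3%. At an unadjusted p under 0.05 stood 52.9% of all genes in this fit. The groups did not overlap for 30 of 39 members, against 67.2% of all genes tested. Of the 37 members tested, 9 were called with at least a 2-fold change, against 10.6% of all 16281 genes tested. The median log2 fold change was -0.07, against 0.0028 for all genes. Of the 9 members called with at least a 2-fold change, 8 fell (KNG1, C8G, MBL2, C8B, C5, F12, F7 and F13B) and 1 rose (MASP1). The library was left out for its values, so the p-values of this fit are no independent evidence of a difference between the peptides. In bulk RNA, fewer cells of a type and less RNA per cell cannot be told apart.

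**Figure D1:**
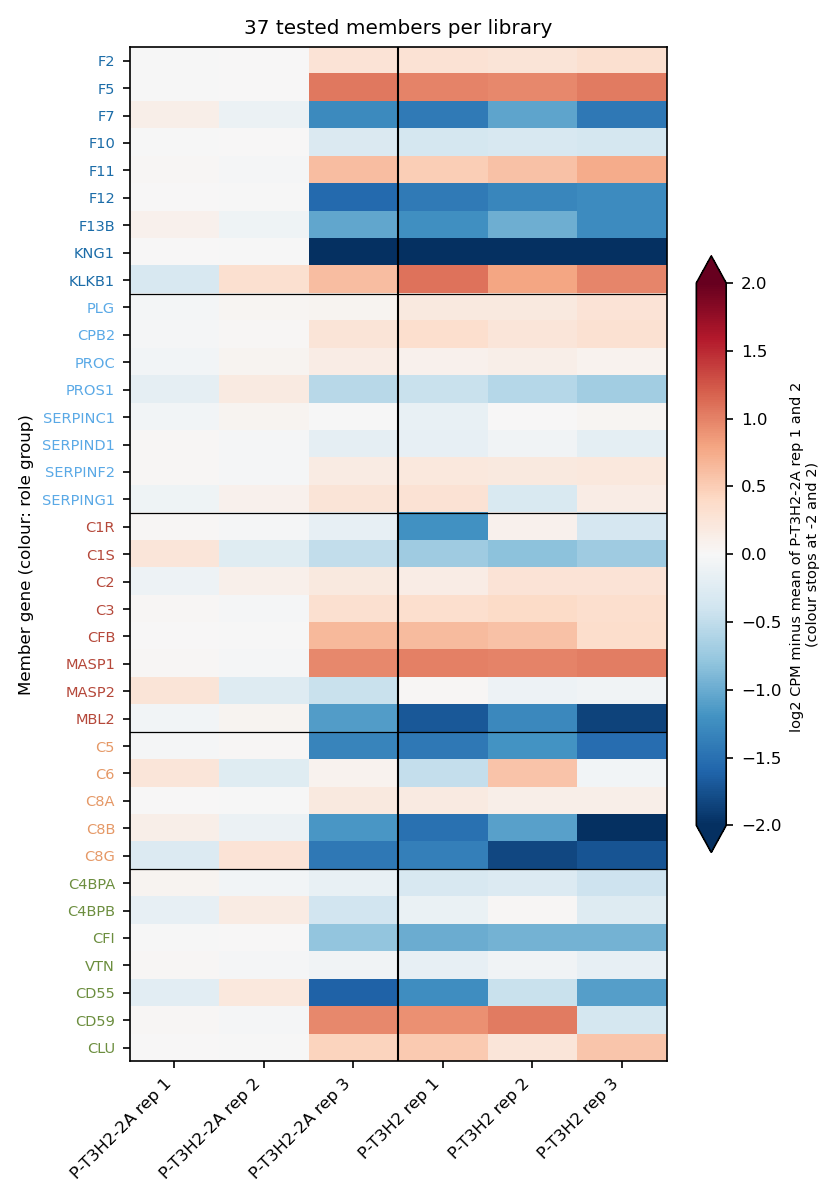
log2 CPM of the 37 tested members (rows, grouped by role and coloured as in the plot of fold changes) in the 6 libraries (columns), as the difference from the mean of P-T3H2-2A replicates 1 and 2; red is higher, blue lower, and the colour stops at -2 and 2. The column of P-T3H2-2A replicate 3 resembles the 3 P-T3H2 columns for most members: it lay nearer to the P-T3H2 mean for 34 of 39.

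On a log2 scale with 0 at the mean of P-T3H2-2A replicates 1 and 2 and 1 at the P-T3H2 mean, the library labelled P-T3H2-2A replicate 3 had a median position of 0.939 over the 25 called members. It lay past the midpoint for 23 of them. The 2 exceptions were PLG at 0.267 and C4BPA at 0.447, which stood nearer to the other control libraries.

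**Figure D2:**
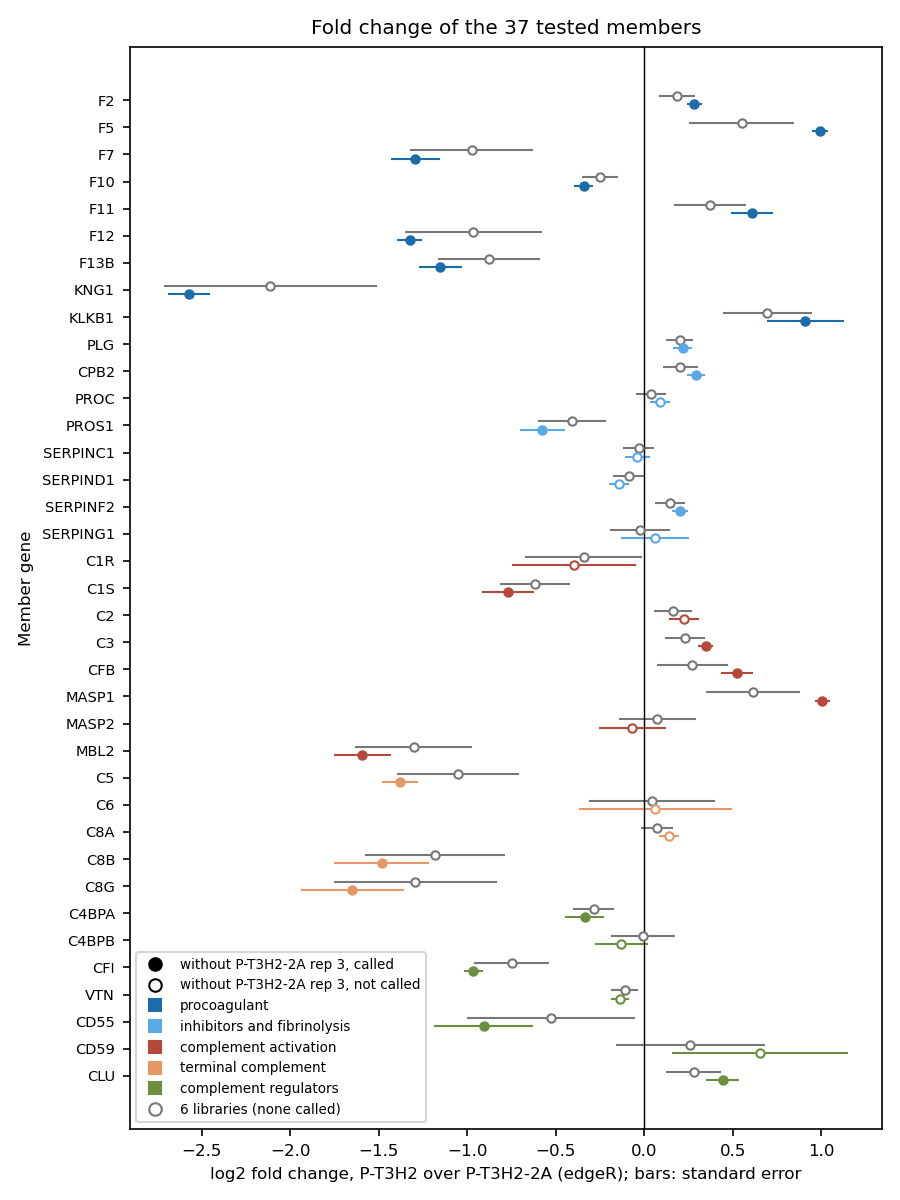
log2 fold change (P-T3H2 over P-T3H2-2A) of each tested member with its standard error, from edgeR: grey open circles use all 6 libraries, coloured circles leave out P-T3H2-2A replicate 3 and are filled where called. KNG1 lies farthest from 0 in both fits, at -2.11 and -2.57, and the error bars are wider with all 6 libraries for most members.

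By level per length, the deposited FPKM values placed VTN, which encodes the adhesion and complement-regulating protein vitronectin, highest of the members at a mean of 169 over the 6 libraries. Prothrombin, F2, stood at 135 and C3, the central complement component, at 117. In all, 19 members had a mean of at least 10 FPKM, 11 stood between 1 and 10, and 9 were below 1. F9, the gene of the protease that activates factor X, had 0 counts in all 6 libraries, where 3 counts over the libraries together would be 0.0245 CPM. C9, the pore-forming end of the complement cascade, had 5 counts in all, 2 with P-T3H2-2A and 3 with P-T3H2. Neither was tested.

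**Figure D3:**
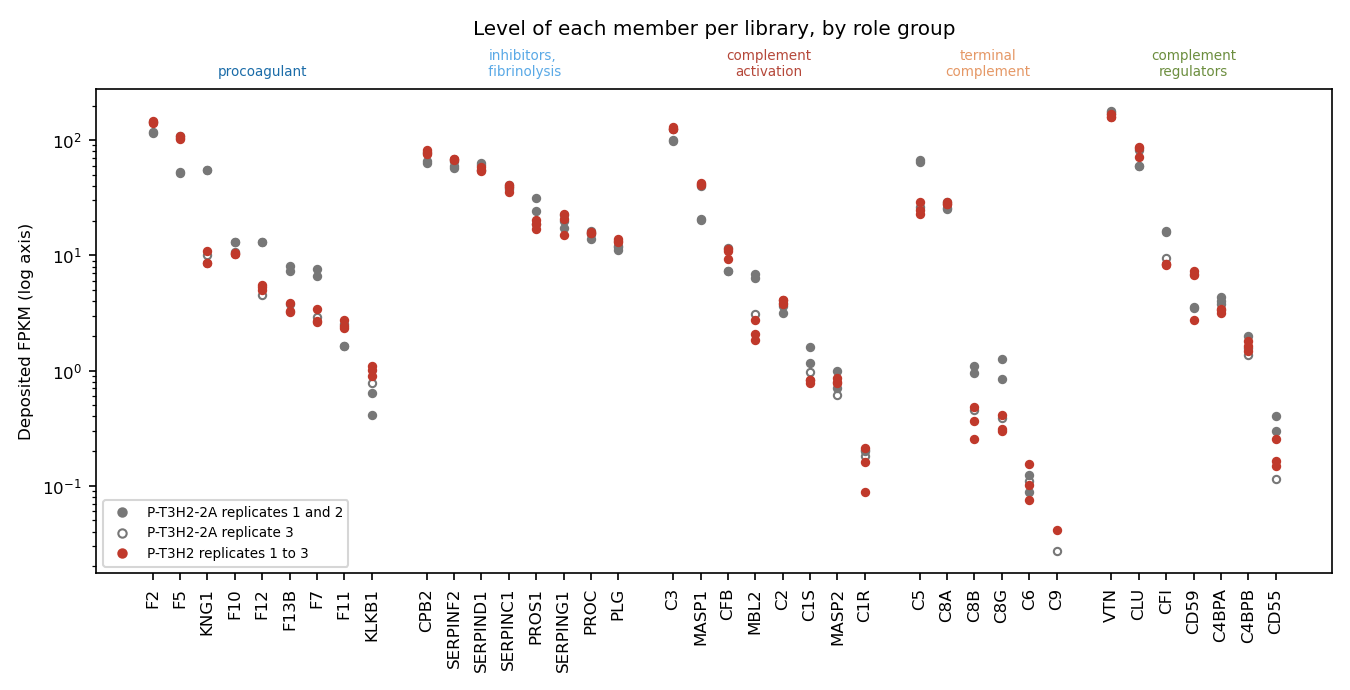
Deposited FPKM (log axis) of each member in each library, by role group and ordered by mean level; filled grey circles are P-T3H2-2A replicates 1 and 2, the open circle P-T3H2-2A replicate 3 and red circles P-T3H2. F9 is not drawn, and values of 0 for C9 are left off the log axis; levels run from VTN at a mean of 169 down to C9 at 0.0113.

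Procoagulant factors were the role group in which every tested member passed in the 5-library fit: of 9, F2, F5, F11 and KLKB1 rose and F7, F10, F12, F13B and KNG1 fell, beside 45.4% of all genes. None of the 9 passed in edgeR as labelled, and DESeq2 called KNG1 alone among them. KNG1, which encodes the kininogens that carry the contact proteins and release bradykinin, changed most (ENSG00000113889, chromosome 3, 186717276 to 186743954, plus strand). Its 3 P-T3H2-2A libraries held 262, 260.3 and 47.3 CPM in the order of their numbers, and the P-T3H2 libraries, in the same order, held 40.3, 51.4 and 40.1 CPM. P-T3H2-2A replicates 1 and 2 were high, the other 4 were low, and P-T3H2-2A replicate 3 lay inside the P-T3H2 range. KNG1 fell 5.96-fold in the 5-library fit (log2 fold change -2.57, SE 0.119, edgeR adjusted p = 5.47e-05), against -2.11 as labelled (SE 0.603, edgeR adjusted p = 0.275).

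The other contact system genes did not share 1 direction. F12, the zymogen that starts the contact pathway (ENSG00000131187, chromosome 5, 177402140 to 177409576, minus strand), stood at 78.3, 76.9 and 26.6 CPM with P-T3H2-2A and at 29.1, 31.2 and 32.6 CPM with P-T3H2. P-T3H2-2A replicate 3 was the lowest of all 6 libraries, so the labelled groups overlapped. F12 fell 2.51-fold in the 5-library fit (edgeR adjusted p = 3.04e-05) and had a log2 fold change of -0.97 as labelled. Its locus shares 6373 bases with GRK6 on the opposite strand, whose reads could not be told apart without a stated strand setting.

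KLKB1, for prekallikrein, and F11, for the protease that factor XII activates, lie 7473 bases apart on chromosome 4 and both rose. KLKB1 was low, at 2.08, 3.21 and 3.95 CPM with P-T3H2-2A and 5.49, 4.48 and 5.08 CPM with P-T3H2, and its labelled groups did not overlap. Its log2 fold change was 0.91 in the 5-library fit (SE 0.219, edgeR adjusted p = 0.0131) and 0.70 as labelled, and the call was lost without P-T3H2-2A replicate 1 as well (log2 fold change 0.64, edgeR adjusted p = 0.0707). KLKB1 shares 4478 bases with CYP4V2 on the same strand, so part of its low count is uncertain. F11 ranged from 7.91 to 13.4 CPM and rose 1.53-fold in the 5-library fit.

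In the extrinsic arm F7, the protease that pairs with tissue factor, fell 2.45-fold in the 5-library fit (log2 fold change -1.29, SE 0.14, edgeR adjusted p = 0.000688; ENSG00000057593, chromosome 13, 113105788 to 113120681, plus strand). It stood at 66.6, 56.9 and 25.4 CPM with P-T3H2-2A and at 22.99, 29.8 and 22.9 CPM with P-T3H2, and P-T3H2-2A replicate 3 fell inside the range of the P-T3H2 libraries. The labelled log2 fold change of F7 was -0.98 (edgeR adjusted p = 0.275). F10, whose product is activated by both arms and whose gene starts 2132 bases past F7 on the same strand, moved much less. F10 stood at 67.5, 67.8 and 55.5 CPM with P-T3H2-2A and at 52.8, 54.2 and 53.2 CPM with P-T3H2. Its labelled groups did not overlap although P-T3H2-2A replicate 3 lay close to the P-T3H2 libraries, and its log2 fold change was -0.34 in the 5-library fit (edgeR adjusted p = 0.00217) and -0.25 as labelled.

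F5, the cofactor with which factor X cleaves prothrombin, rose 1.99-fold in the 5-library fit (ENSG00000198734, chromosome 1, 169514166 to 169586588, minus strand). F5 stood at 395, 397 and 827 CPM with P-T3H2-2A and at 789, 768 and 814 CPM with P-T3H2. P-T3H2-2A replicate 3 was the highest of the 6 libraries, and the labelled log2 fold change was 0.55 (edgeR adjusted p = 0.304), against 0.99 without it (edgeR adjusted p = 1.99e-05). F2, for prothrombin, the most highly expressed of the procoagulant genes per length, rose by less: it stood at 429, 432 and 523 CPM against 525, 513 and 536 CPM, and its log2 fold change was 0.28 in the 5-library fit (edgeR adjusted p = 0.0017). F13B, the carrier subunit of the fibrin-crosslinking factor XIII, stood at 21.1, 18.8 and 9.74 CPM with P-T3H2-2A and at 8.52, 10.1 and 8.33 CPM with P-T3H2. It fell 2.22-fold in the 5-library fit (edgeR adjusted p = 0.000383), again with P-T3H2-2A replicate 3 inside the P-T3H2 range. The labelled log2 fold change of F13B was -0.88 (edgeR adjusted p = 0.275).

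Inhibitors and fibrinolysis genes changed little. Of 8, PLG, CPB2 and SERPINF2 rose and PROS1 fell in the 5-library fit (45.4% of all genes called), none passed as labelled, and no called member reached 2-fold. PLG, for plasminogen, the precursor of the fibrin-digesting protease, stood at 116, 122 and 124 CPM with P-T3H2-2A and at 136, 137 and 144 CPM with P-T3H2. All P-T3H2 libraries were above all controls, P-T3H2-2A replicate 3 included. Its log2 fold change was 0.22 in the 5-library fit (edgeR adjusted p = 0.0133) and 0.20 as labelled (edgeR adjusted p = 0.275), so the size of the difference hardly depended on that library. The PLG call was lost without P-T3H2-2A replicate 1 as well (edgeR adjusted p = 0.109).

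SERPINF2, the plasmin inhibitor, stood at 257, 249 and 284 CPM with P-T3H2-2A and at 293, 288 and 293 CPM with P-T3H2, with no overlap. CPB2, a carboxypeptidase that slows fibrin breakdown, stood at 157, 162 and 191 CPM against 202, 189 and 196 CPM, where P-T3H2-2A replicate 3 fell within the P-T3H2 range. In the 5-library fit SERPINF2 rose 1.15-fold and CPB2 1.23-fold (edgeR adjusted p = 0.00872 and 0.00309), and the SERPINF2 call was lost without P-T3H2-2A replicate 2 as well (edgeR adjusted p = 0.0827). PROS1, the protein S cofactor of activated protein C, ranged from 118 to 198 CPM with P-T3H2-2A and from 108 to 128 CPM with P-T3H2. It fell 1.49-fold in the 5-library fit (edgeR adjusted p = 0.0144), though not without P-T3H2 replicate 2 as well (edgeR adjusted p = 0.0768).

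The main thrombin inhibitor SERPINC1 (antithrombin), SERPIND1 (heparin cofactor II) and PROC (protein C) did not pass in either fit, with 5-library log2 fold changes of -0.04, -0.14 and 0.09 and standard errors of 0.0718, 0.0563 and 0.0575. SERPIND1 shares 13842 bases with PI4KA on the opposite strand, which had 18200 counts against 26886 for SERPIND1. Without a stated strand setting the reads of these genes could not be told apart. SERPING1, the inhibitor of C1 proteases and of the contact system, did not pass either, and its libraries were uneven: the P-T3H2 libraries stood at 224, 149.8 and 204 CPM, and P-T3H2-2A ranged from 173 to 219.7 CPM. P-T3H2 replicate 2 was the lowest of the 6.

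Genes of complement activation moved both ways. Of 8 tested, C3, CFB and MASP1 rose, C1S and MBL2 fell and 3 did not pass in the 5-library fit, where 45.4% of all genes passed. As labelled none passed in edgeR, and DESeq2 called MBL2 alone among them. Their summed FPKM was 140.5 and 138 in P-T3H2-2A replicates 1 and 2, 185 in replicate 3 and 184 to 189.9 with P-T3H2, most of it from C3. C3 stood at 1208, 1173 and 1493 CPM with P-T3H2-2A and at 1497, 1553 and 1497 CPM with P-T3H2. The labelled groups were apart by a small gap, since P-T3H2-2A replicate 3 lay just below the lowest P-T3H2 library, and C3 rose 1.27-fold in the 5-library fit (edgeR adjusted p = 0.000706). CFB, the protease precursor of the alternative pathway, ranged from 67.4 to 106 CPM with P-T3H2-2A and from 85.9 to 105 CPM with P-T3H2, and rose 1.44-fold without P-T3H2-2A replicate 3.

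In the lectin pathway, the protease and the recognition gene went in opposite directions. MASP1, a protease that is activated on mannose-binding lectin (ENSG00000127241, chromosome 3, 187217285 to 187292022, minus strand), stood at 415, 402 and 791 CPM with P-T3H2-2A and at 822, 813 and 830.1 CPM with P-T3H2. All P-T3H2 libraries were above all controls, with P-T3H2-2A replicate 3 just below them. MASP1 rose 2.01-fold in the 5-library fit (log2 fold change 1.01, SE 0.0424, edgeR adjusted p = 1.62e-05), against a log2 fold change of 0.62 as labelled. MBL2, for mannose-binding lectin itself (ENSG00000165471, chromosome 10, 52765380 to 52771700, minus strand), stood at 22.9, 24.7 and 10.97 CPM with P-T3H2-2A and at 7.35, 9.74 and 6.59 CPM with P-T3H2. Its groups did not overlap, with P-T3H2-2A replicate 3 between the other controls and the P-T3H2 libraries. MBL2 fell 3.02-fold in the 5-library fit (edgeR adjusted p = 0.000364) and had a log2 fold change of -1.30 as labelled. MASP2, the protease that cleaves C4 and C2, was low, between 3.01 and 4.91 CPM, and did not pass.

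Classical pathway genes were low. C1S, one of the C1 proteases, stood at 25.5, 18.1 and 15.3 CPM with P-T3H2-2A and at 13.1, 12.2 and 13.1 CPM with P-T3H2, without overlap, and fell 1.7-fold in the 5-library fit (edgeR adjusted p = 0.00511). C1S shares 30252 bases with LPCAT3 on the opposite strand, which had 16740 counts against 1947 for C1S. C1R, the partner protease, held 248 counts in all, shared 3021 bases with C1RL on its own strand and did not pass. C2, cleaved in the classical and lectin pathways, ranged from 31.6 to 40.8 CPM and did not pass (5-library log2 fold change 0.22, SE 0.0857). C2 and CFB share 23 bases, and a readthrough gene, AL645922.1, with 897 counts, overlaps both, so counts near it are uncertain.

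Of 5 terminal complement genes tested, C5, C8B and C8G fell at least 2-fold in the 5-library fit, where 45.4% of all genes were called and 10.6% with at least that change. C6 and C8A did not pass, and none of the 5 passed as labelled. C7, a pore component outside the 39, was 2.74-fold higher as labelled and did not pass (edgeR adjusted p = 0.317). Its 11.2-fold rise in the 5-library fit rests on 6 and 9 counts in P-T3H2-2A replicates 1 and 2, so that size is uncertain. The group's median log2 fold change, which is the value of C5, was -1.38 in that fit and -1.05 as labelled, against 0.0028 and -0.0039 for all genes. Its summed FPKM, mostly C5 and C8A, was 92.1 and 95.1 in P-T3H2-2A replicates 1 and 2, 56.7 in replicate 3 and 51.4 to 57.6 with P-T3H2. The lower sum lay in C5, at 64.5 and 67.4 FPKM in P-T3H2-2A replicates 1 and 2 and 23.0 to 28.9 with P-T3H2. C8A did not fall, at 25.5 and 25.3 FPKM in those replicates and 27.7 to 29.1 with P-T3H2.

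C5, the precursor that starts pore assembly (ENSG00000106804, chromosome 9, 120952335 to 121050276, minus strand), stood at 438, 455 and 178 CPM with P-T3H2-2A and at 165, 196 and 155 CPM with P-T3H2. P-T3H2-2A replicate 3 fell inside the P-T3H2 range, and C5 fell 2.6-fold without it (log2 fold change -1.38, SE 0.101, edgeR adjusted p = 0.00019), against -1.05 as labelled (edgeR adjusted p = 0.275). The 3 chains of C8, which joins the pore after C5, C6 and C7, differed in level, and the difference between their responses was not tested. C8A stood at 60.6, 59.6 and 69.1 CPM with P-T3H2-2A and at 68.1, 65.5 and 65.2 CPM with P-T3H2, and at a mean of 27.5 FPKM.

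C8B, whose gene lies 10988 bases from C8A on the opposite strand, stood at 4.1, 3.51 and 1.69 CPM with P-T3H2-2A and at 1.35, 1.78 and 0.941 CPM with P-T3H2, a mean of 0.598 FPKM. It fell 2.8-fold in the 5-library fit (edgeR adjusted p = 0.00392), and its labelled log2 fold change was -1.18 (edgeR adjusted p = 0.275). C8G stood at 1.68, 2.47 and 0.753 CPM against 0.791, 0.579 and 0.612 CPM. It fell 3.14-fold in the 5-library fit (edgeR adjusted p = 0.00346), and its labelled log2 fold change was -1.29 (edgeR adjusted p = 0.275). In both genes P-T3H2-2A replicate 3 lay inside the P-T3H2 range. C8G rests on 137 counts over all libraries and lies wholly inside RABL6 on the same strand, which had 12825 counts, so its value is uncertain.

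Among complement regulators the change in CFI was called with the smallest p. Of 7 tested, CLU rose and C4BPA, CFI and CD55 fell in the 5-library fit, and C4BPB, VTN and CD59 did not pass, where 45.4% of all genes passed. DESeq2 called only CLU and CFI of these in the same 5 libraries, and none passed as labelled in either tool. CFI, the protease that cuts C3b and C4b with cofactors (ENSG00000205403, chromosome 4, 109740694 to 109802179, minus strand), stood at 89.4, 90.8 and 52.3 CPM with P-T3H2-2A and at 45.3, 46.5 and 46.6 CPM with P-T3H2. The groups did not overlap, and P-T3H2-2A replicate 3 lay near the P-T3H2 libraries. CFI fell 1.95-fold in the 5-library fit (log2 fold change -0.97, SE 0.053, edgeR adjusted p = 3.7e-05), against -0.75 as labelled.

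VTN stood at 570.0, 551 and 534 CPM with P-T3H2-2A and at 501, 533 and 499 CPM with P-T3H2, which was lower in every library by a gap far smaller than the range within either group. It did not pass in either fit (5-library log2 fold change -0.14, edgeR adjusted p = 0.0647). C4BPA, the main chain of the C4b-binding protein, stood at 12.5, 11.5 and 10.8 CPM with P-T3H2-2A and at 9.63, 9.88 and 8.94 CPM with P-T3H2, without overlap. Its adjusted p in the 5-library fit was 0.0399 in edgeR and 0.0946 in DESeq2, and the call was lost when any 1 further library was left out (edgeR adjusted p between 0.0517 and 0.194). C4BPB, the chain that binds protein S, ranged from 6.68 to 9.79 CPM and did not pass.

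CLU, for the chaperone clusterin, ranged from 655 to 901 CPM with P-T3H2-2A and from 785 to 967 CPM with P-T3H2, and rose 1.36-fold in the 5-library fit (edgeR adjusted p = 0.01), a call lost without P-T3H2-2A replicate 1 or 2 as well (edgeR adjusted p = 0.0549 and 0.064). CD55, the membrane regulator that speeds decay of C3 convertases, was low, between 1.18 and 4.2 CPM, and its 5-library fall (edgeR adjusted p = 0.0332) was not called by DESeq2 (adjusted p = 0.0528). That fall was also lost in edgeR without P-T3H2 replicate 1 or 3 or P-T3H2-2A replicate 2 (adjusted p between 0.0859 and 0.189).

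CD59, the membrane inhibitor of pore assembly, was singled out after its values were seen. It stood at 54.3, 53.1 and 104 CPM with P-T3H2-2A and at 101, 110.3 and 41.98 CPM with P-T3H2. P-T3H2 replicate 3 was the lowest of all 6 libraries, below P-T3H2-2A replicates 1 and 2, while P-T3H2-2A replicate 3 stood with P-T3H2 replicates 1 and 2. The ratio of the highest to the lowest P-T3H2 library was 2.63, the largest of the 29 members whose mean reached 10 CPM, and 92 of 9907 genes of that level exceeded it. For 29 genes of that level (0.293%), P-T3H2 replicate 3 stood at 50% or less of both other P-T3H2 libraries, and CD59 was the 1 member among them. Without P-T3H2 replicate 3 as well as P-T3H2-2A replicate 3, the log2 fold change of CD59 was 0.98, a value with no test since replicate 3 was left out for its CD59 level, against 0.65 in the 5-library fit (SE 0.497, edgeR adjusted p = 0.359).

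**Figure D4:**
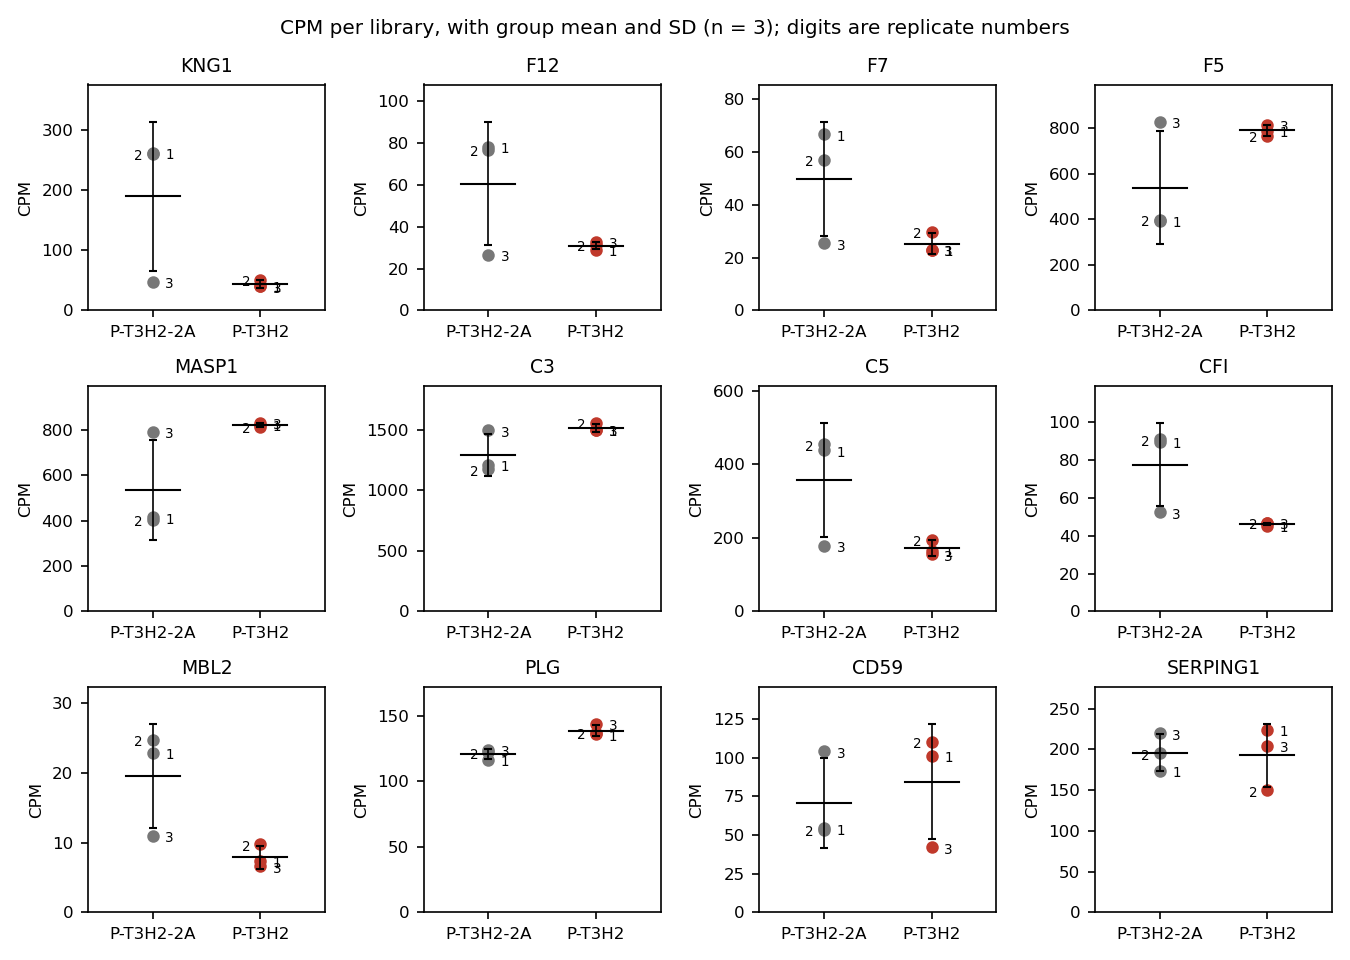
CPM of 12 members in each library (points, labelled with the replicate number), with the group mean (line) and SD (bar, n = 3); axes start at 0. In KNG1, F12, F7, F5, MASP1, C3, C5, CFI and MBL2 P-T3H2-2A replicate 3 lies near the P-T3H2 libraries, PLG keeps it with the other controls, and in CD59 and SERPING1 1 P-T3H2 library is low.

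Members that lie within 100000 bases of each other were set side by side, 6 pairs in all. In KLKB1 with F11 both rose, and in F7 with F10 both fell, with 5-library log2 fold changes of -1.29 and -0.34. In the other 4 pairs 1 gene passed and the other did not: C8B but not C8A, C4BPA but not C4BPB, C1S but not C1R, and CFB but not C2. The difference between the genes of a pair was not tested.

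**Figure D5:**
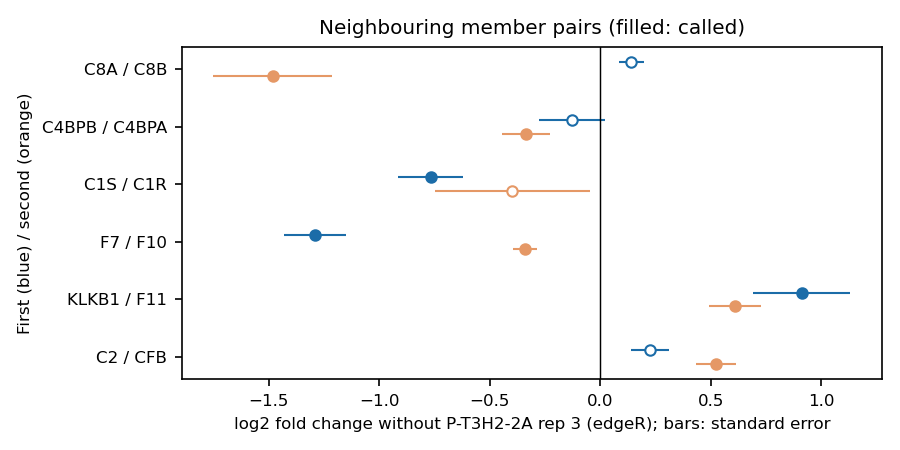
log2 fold change in the 5-library fit, with standard error, for the 6 pairs of neighbouring members; blue is the first gene named, orange the second, and filled circles passed. C8A and C8B lie far apart, at 0.14 and -1.48, while both genes of the KLKB1 and F11 pair lie above 0.

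Other genes of the same systems were taken from lists set apart from the 39. Of 22 other coagulation and fibrinolysis genes 18 were tested, and 7 rose and 6 fell in the 5-library fit (45.4% of all genes called), with none passing as labelled. SERPINA5, the protein C inhibitor, stood at 243, 249 and 693 CPM with P-T3H2-2A and at 756, 687 and 758 CPM with P-T3H2. It was 2.98-fold higher in the 5-library fit and 1.86-fold as labelled. PLAU, for urokinase, a plasminogen activator, had a P-T3H2 mean of 5.71 ± 0.683 CPM (SD, n = 3), while controls 1, 2 and 3 stood at 0.924, 0.89 and 5.37 CPM. It was 6.26-fold higher in the 5-library fit and 2.35-fold as labelled. The 5-library size rests on 16 and 18 counts in P-T3H2-2A replicates 1 and 2, so it is uncertain. CPN2, the large subunit of a carboxypeptidase that inactivates kinins and anaphylatoxins, was 3.86-fold lower in the 5-library fit and 2.86-fold as labelled. Its P-T3H2 mean was 21.6 ± 2.15 CPM (SD, n = 3), while controls 1, 2 and 3 stood at 76.8, 90.1 and 18.6 CPM. VWF, the platelet-tethering carrier of factor VIII, had 3 counts in P-T3H2-2A replicate 1 and 0 in replicate 2, so no size is given for its rise.

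Of the 6 genes of the vitamin K cycle and factor export, GGCX and FURIN rose and VKORC1L1 and MCFD2 fell in the 5-library fit (45.4% of all genes called), with none passing as labelled. The MCFD2 call (edgeR adjusted p = 0.0487) was lost in DESeq2 (adjusted p = 0.0682). GGCX, the carboxylase that matures prothrombin and factors VII, IX and X, had a 5-library log2 fold change of 0.56. Of 28 other complement genes 11 were tested, and C1RL, C7 and SUSD4 rose in the 5-library fit, and C4A and C4B were among those that fell. C7, which joins the pore between C6 and C8, stood at 0.347, 0.445 and 4.05 CPM with P-T3H2-2A and at 4.7, 4.19 and 4.66 CPM with P-T3H2. SUSD4, a membrane complement inhibitor, stood at 2.2, 2.32 and 11.6 CPM with P-T3H2-2A against a P-T3H2 mean of 11.7 ± 3.28 CPM (SD, n = 3), 5.15-fold higher in the 5-library fit and 2.16-fold as labelled, where it did not pass. C4A and C4B are near-identical copies, so reads may be split between them. The C1q chains C1QA, C1QB and C1QC, the ficolins FCN1, FCN2 and FCN3 and the receptors C3AR1, C5AR1 and C5AR2 had too few counts to be tested.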

How the data were processed

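Per the file headers, the authors deposited, for each of 6 libraries, a whole-number count and an FPKM value per gene. The submitters' processing notes list HISAT2 2.0.4, StringTie 1.3.3b and edgeR with no role given, beside a mouse build, although deposited gene IDs and loci are human. All 39 members are in GENCODE release 29 (GRCh38), 31 with identical coordinates. The strand setting of the counting is not given in the sources used here. Library kits named in the labels are not tied to libraries. FPKM was used only to compare levels per length.

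Members and gene lists were chosen with earlier results of these data known. edgeR 4.0.16 under R 4.3.3 tested the deposited counts over all genes: TMM, filterByExpr (minimum count 10, total 15), robust quasi-likelihood, group as the only term, Benjamini-Hochberg adjustment at 0.05. The standard error is the log2 fold change divided by the square root of F. The procedure was tested on simulated data. The same test was run without P-T3H2-2A replicate 3. Depth gives counting error only; reads carry no molecular identifiers. Alternatives were DESeq2 1.42.0, its size factors, library totals, no filter beyond 1 count, a replicate block and each library left out. Values in every library are given for members whose groups do not overlap, for the 8 largest called changes of the 5-library fit whose mean reaches 1 CPM, and per role group for the highest FPKM and the smallest p. Of other pathway genes the 6 largest called changes are given. Some items are not reported here. SERPING1, C8A, GGCX and CD59 were chosen after their values were seen.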

Additional observations from a re-analysis of the deposited data

How the results depend on the processing

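With all 6 libraries the count of members called was 0 in edgeR under TMM, DESeq2 size factors, library totals, no low-count filter and the replicate block, and 2 in DESeq2. It was 0 to 25 over left-out libraries, with 25 only without P-T3H2-2A replicate 3. Without that library 25 members passed under every edgeR scaling and 23 in DESeq2 (C4BPA and CD55 lost), and 21 to 25 with 1 further library left out (a lone control library then borrows its spread from P-T3H2). Over all genes the count of calls was 1 in edgeR, 117 in DESeq2 (34 higher, 83 lower), 4 with no filter beyond 1 count, 0 with the replicate block and 0 to 7390 over left-out libraries. Deviations of same-numbered libraries from their labelled group means had correlations across genes of -0.0513, 0.163 and 0.112. The outlying P-T3H2-2A replicate 3 shifts the mean of its group, so these values cannot show whether replicate numbers pair the libraries. With the replicate block the log2 fold change of C4BPB was 0.0059 in place of -0.0061.

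Directions turned over left-out libraries for members near 0. With 6 libraries the range was -0.0199 to 0.0886 for PROC, -0.0679 to 0.0244 for SERPINC1, -0.15 to 0.13 for SERPING1, -0.0667 to 0.30 for MASP2, -0.28 to 0.26 for C6 and -0.13 to 0.15 for C4BPB. Without P-T3H2-2A replicate 3 and 1 further library, it was -0.10 to 0.0193 for SERPINC1, -0.0574 to 0.22 for SERPING1, -0.31 to 0.20 for MASP2, -0.25 to 0.31 for C6 and -0.29 to 0.0402 for C4BPB. The causes were not tested. Depth limits F9, C9, C6, C8G and C1R, which hold 0 to 248 counts.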
